A study of Mus musculus with 17 samples.

Results

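The genes described here are 32 markers of the crypt base columnar stem cell, the cycling stem cell at the bottom of the intestinal crypt, chosen by name with Olfm4 and Ascl2 as the defining pair. They were 32 of the 27769 gene names tested on the arrays, and all 32 were found by name. Their RNA levels come from 17 Agilent arrays of 1 colour, hybridised with RNA of intestinal stem cells from LGR5-GFPki mice, in which a green fluorescent protein knocked into the gene reports Lgr5. The cells came from mice given 12 Gy of gamma rays or none, were sorted by flow cytometry as LGR5hi (bright reporter) or LGR5lo (dim reporter) 3 h after exposure, and gave 50 ng of RNA per array. LGR5hi cells were on 4 arrays without irradiation and 4 after it, and LGR5lo cells on 5 and 4. Each of these groups had 2 female samples, and the rest were male. All groups carried the reporter allele, so no sample had cells without the knock-in, and the gate was the reporter itself. The labels do not say whether replicates were separate mice or pools, so p-values measure only the spread between these samples, which may be technical.

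Crypt base columnar cells sit between Paneth cells and divide throughout life, and their daughters become the absorptive and secretory cells of the villus. They depend on WNT signals, which R-spondins strengthen through LGR5 and its relatives, and on Notch signals from their neighbours. ASCL2 is the transcription factor that, with WNT signalling, sets their gene programme, and OLFM4 is a secreted glycoprotein and a robust marker of the same cells. The other markers include regulators of transcription and RNA, parts of WNT, BMP and growth factor signalling, and channels and other membrane proteins.

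Levels are log2 intensities relative to the array's own 75th percentile, so that 0 is that percentile and a step of 1 is a doubling. Differences are log2 values ± the standard error of the limma fit. A gene is said to rise, fall, or be higher or lower where its Benjamini-Hochberg adjusted p over all 27769 names was under 0.05. Lgr5 itself, the gate, measured 4.70, 3.99, 4.12 and 4.13 on the non-irradiated LGR5hi arrays and 1.62, 0.30, 1.43, 1.10 and 0.99 on the non-irradiated LGR5lo arrays. After 12 Gy it measured 2.66, 3.15, 2.35 and 2.67 in LGR5hi and -0.63, 0.20, -0.55 and 0.26 in LGR5lo, so the sorts did not overlap in either arm. Of a list of p53 targets, Cdkn1a and Mdm2 rose after 12 Gy in LGR5hi by 4.91 ± 0.31 and 3.15 ± 0.29, and in LGR5lo by 2.90 ± 0.30 and 2.95 ± 0.28, with no overlap between irradiated and non-irradiated arrays. All 12 p53 targets of that list rose in both sorts, where 6.18% of all genes rose in LGR5hi and 4.47% in LGR5lo. Of the 32 markers, 31 were well above background on all 16 arrays that carry spot flags, and none was saturated. The exception, Sorbs2, reached that level on 14 arrays. On replicate 2 of the non-irradiated LGR5lo cells 95.6% of spots were above background, against 58.9% to 73.9% on the other arrays, and counts are also given without it.

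Promoter sequences are shown for the defining pair and for Tnfrsf19, which had the largest difference between the sorts. They are the 250 bases before the RefSeq start site in GRCm38.p6, read 5′ to 3′ along the gene's strand, with capitals marking CTTTGAT (a TCF/LEF core, shown as ATCAAAG where it lies on the other strand) or CAGCTG (an E-box of the kind bHLH factors bind).
Ascl2, chr7:142969265-142969514, minus strand: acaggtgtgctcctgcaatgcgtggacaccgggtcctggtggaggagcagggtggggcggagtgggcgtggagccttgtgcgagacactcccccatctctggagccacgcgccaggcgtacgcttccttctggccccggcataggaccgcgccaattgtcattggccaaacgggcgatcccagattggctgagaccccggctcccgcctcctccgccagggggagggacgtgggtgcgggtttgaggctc
Olfm4, chr14:80000052-80000301, plus strand: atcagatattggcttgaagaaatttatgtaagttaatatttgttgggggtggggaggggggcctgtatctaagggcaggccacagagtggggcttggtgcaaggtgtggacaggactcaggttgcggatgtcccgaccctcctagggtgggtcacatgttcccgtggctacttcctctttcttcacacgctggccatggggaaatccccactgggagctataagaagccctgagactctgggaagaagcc
Tnfrsf19, chr14:61037988-61038237, minus strand: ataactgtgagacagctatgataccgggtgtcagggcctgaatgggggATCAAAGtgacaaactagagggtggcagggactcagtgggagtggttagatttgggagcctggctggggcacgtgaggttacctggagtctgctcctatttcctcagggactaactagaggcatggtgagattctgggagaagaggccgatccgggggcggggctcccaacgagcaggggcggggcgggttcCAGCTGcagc
Neither motif's letters occur in the Ascl2 and Olfm4 windows, and Tnfrsf19 holds 1 of each. Where a gene had several promoter entries, the one with the most matches is shown. In the shares that follow, a gene held a motif if any of its entries did. Searched on both strands, CTTTGAT occurs in 3 of the 24 markers with a promoter entry (Tnfrsf19, Tgif1 and Mecom; 12.5%) and in 3.72% of 27025 genes with one. CAGCTG, which reads the same on both strands, occurs in 6 of 24 (Tnfrsf19, Ifitm3, Sorbs2, Amn, Tgif1 and Etv5; 25%) and in 14.7% of all. Their letters do not allow the motifs to overlap, and a match describes letters only.

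Without irradiation, 27 of the 32 markers were higher in LGR5hi than in LGR5lo cells and none was lower, also not at an unadjusted p under 0.05 in limma. Among all genes tested, 9.55% were called in this comparison, 4.62% as higher in LGR5hi and 4.93% as lower. The median marker difference was 1.39, against -0.08 for all genes. The largest differences were those of Tnfrsf19 (2.84 ± 0.22), Fstl1 (2.29 ± 0.34), Gkn3 (2.14 ± 0.30), Rgmb (2.07 ± 0.19) and Scn2b (2.01 ± 0.17). On 25 markers every LGR5hi array read above every LGR5lo array, which was so for 5.7% of all genes. In such bulk RNA, fewer cells of a type and less RNA per cell cannot be told apart.

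After 12 Gy, 19 markers were higher in LGR5hi and again none was lower at either threshold, where 6.31% of all genes were called, 2.21% as higher and 4.09% as lower. Here the median marker difference was 1.07, against 0.05 for all genes, and the sorts did not overlap, with LGR5hi above, on 21 markers and 11.1% of all genes. All 19 were also among the 27 of the non-irradiated arm. Aqp1, Nrn1, Fzd7, Sorbs2, Zbtb38, Lrp4, Phlda1 and Soat1 passed the test without irradiation and not after it, and for none of these 8 did the difference between the arms pass its own test. Paired by replicate number within an arm, 26 markers were higher without irradiation (Lrp4 no longer passed, adjusted p = 0.0575) and 22 after 12 Gy (Aqp1, Nrn1 and Zbtb38 were added, adjusted p = 0.00484, 0.0147 and 0.0449).

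**Figure D1:**
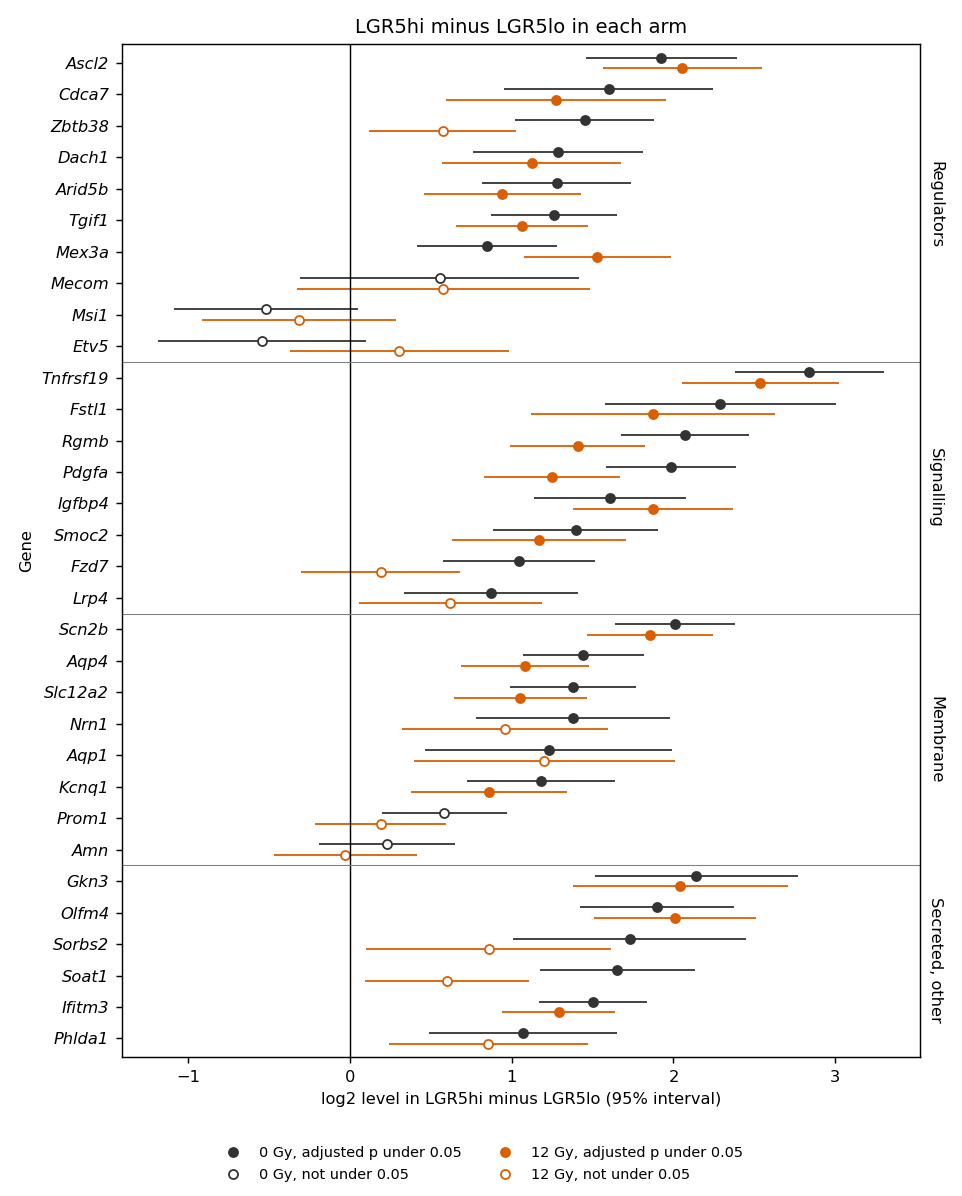
The log2 level in LGR5hi minus that in LGR5lo cells is plotted for each of the 32 markers, without irradiation (black) and after 12 Gy (orange), grouped by role, with 95% intervals of the limma fit; filled points passed an adjusted p of 0.05. The points of 27 markers are filled without irradiation and of 19 after 12 Gy, all to the right of 0.

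Irradiation lowered 17 markers in LGR5hi cells and raised 1, Ifitm3. Of all genes tested, 13.5% were called here, 7.29% as lower and 6.18% as higher. The median marker change was -0.77, against -0.02 for all genes. Without non-irradiated LGR5hi replicate 1, whose values were rebuilt from the authors' series table, 11 fell and 2 rose, with a median of -0.70. In LGR5lo cells 10 markers fell and 2 rose, Ifitm3 and Pdgfa, where 7.49% of all genes were called, 3.02% as lower and 4.47% as higher. There the median marker change was -0.47 and that of all genes -0.13. Soat1 had the largest fall in both sorts (-2.74 ± 0.24 in LGR5hi and -1.69 ± 0.23 in LGR5lo).

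All irradiated arrays read below all non-irradiated arrays on 15 markers in LGR5hi, as for 13% of all genes, and on 8 in LGR5lo, as for 4.87%. The falls called in both sorts were those of Ascl2, Smoc2, Aqp4, Aqp1, Fstl1, Gkn3, Igfbp4, Dach1 and Soat1, which are 9 of the 17 in LGR5hi and 9 of the 10 in LGR5lo. The share of all genes that fell in both sorts was not counted, so this overlap cannot be called particular to the markers. Cdca7, Rgmb, Prom1, Nrn1, Kcnq1, Sorbs2, Zbtb38 and Lrp4 fell by the test in LGR5hi only, and Mex3a in LGR5lo only. Olfm4 and 11 others (Tnfrsf19, Msi1, Slc12a2, Scn2b, Fzd7, Amn, Tgif1, Arid5b, Phlda1, Mecom and Etv5) were called in neither. No marker's effect differed between the sorts by the test of the difference itself, which called 11 of 27769 genes (0.0396%). At an unadjusted p under 0.05, 6 markers differed (Soat1, Zbtb38, Fzd7, Pdgfa, Rgmb and Mex3a), or 6 of 32 where 6.81% of all genes did.

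The scaling bears on these falls. Counts under changed settings are given without the share of all genes called there. They do not show whether a loss of calls was particular to the markers. With each array centred on its median over all non-control probes instead, 5 markers fell in LGR5hi and none rose. In LGR5lo 0 fell and 2 rose by limma with that centring (2 falls and 4 rises at an unadjusted p under 0.05), and the median of all genes moved from -0.13 to 0.40 while the marker median moved from -0.47 to 0.06. With the same centring and non-irradiated LGR5lo replicate 2 left out, added after seeing the data, 14 markers fell and 1 rose in LGR5hi, and 7 fell and 3 rose in LGR5lo, with a median of 0.09 for all genes there. Centred on the median over the kept genes, an alternative chosen after seeing the data, 15 markers fell and 1 rose in LGR5hi, and 8 fell and 2 rose in LGR5lo. Leaving out non-irradiated LGR5lo replicate 2 gave 18 falls and 2 rises in LGR5hi, 13 falls and 2 rises in LGR5lo, and 25 and 20 markers higher in LGR5hi without and after irradiation.

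**Figure D2:**
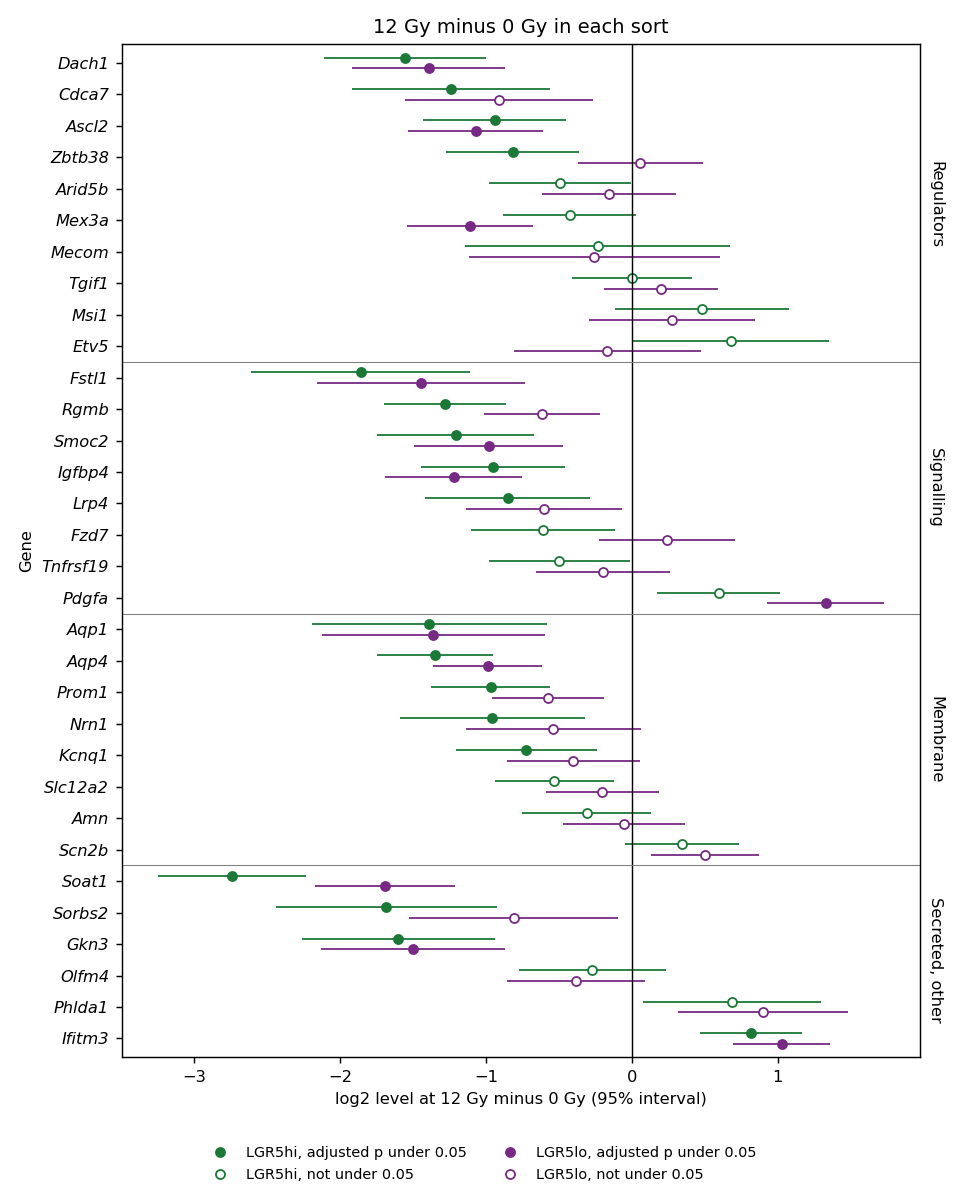
The log2 level at 12 Gy minus that at 0 Gy is plotted for each of the 32 markers in LGR5hi (green) and LGR5lo (purple) cells, grouped by role, with 95% intervals of the limma fit; filled points passed an adjusted p of 0.05. Most points lie left of 0, Soat1 farthest at -2.74 in LGR5hi. Ifitm3, Pdgfa, Phlda1, Scn2b, Msi1 and Tgif1 lie to the right in both sorts. Etv5 does so in LGR5hi only, and Fzd7 and Zbtb38 in LGR5lo only. On the right, only points of Ifitm3 and Pdgfa are filled.

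The labels name no batch, and slides were inferred from the barcodes in the names of the scanner files. By these, the slides held all 4 groups each, apart from the one with non-irradiated LGR5lo replicate 5 alone. With slide as a block, 26 markers were higher in LGR5hi without irradiation and 20 after 12 Gy, 18 fell and 2 rose in LGR5hi, and 10 fell and 2 rose in LGR5lo. Within the slide of replicates 1 and 2 alone, the median marker difference between the sorts was 1.36 without irradiation and 1.22 after it, and the median change after 12 Gy was -0.66 in LGR5hi and -0.65 in LGR5lo. Within the slide of replicates 3 and 4, these medians were 1.28, 1.02, -0.79 and -0.52. With 2 arrays a group, 2, 3, 1 and 0 markers passed the test on the former slide and 7, 2, 10 and 3 on the latter. The 0 was for limma in LGR5lo, where 9 markers fell and 4 rose at an unadjusted p under 0.05.

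**Figure D3:**
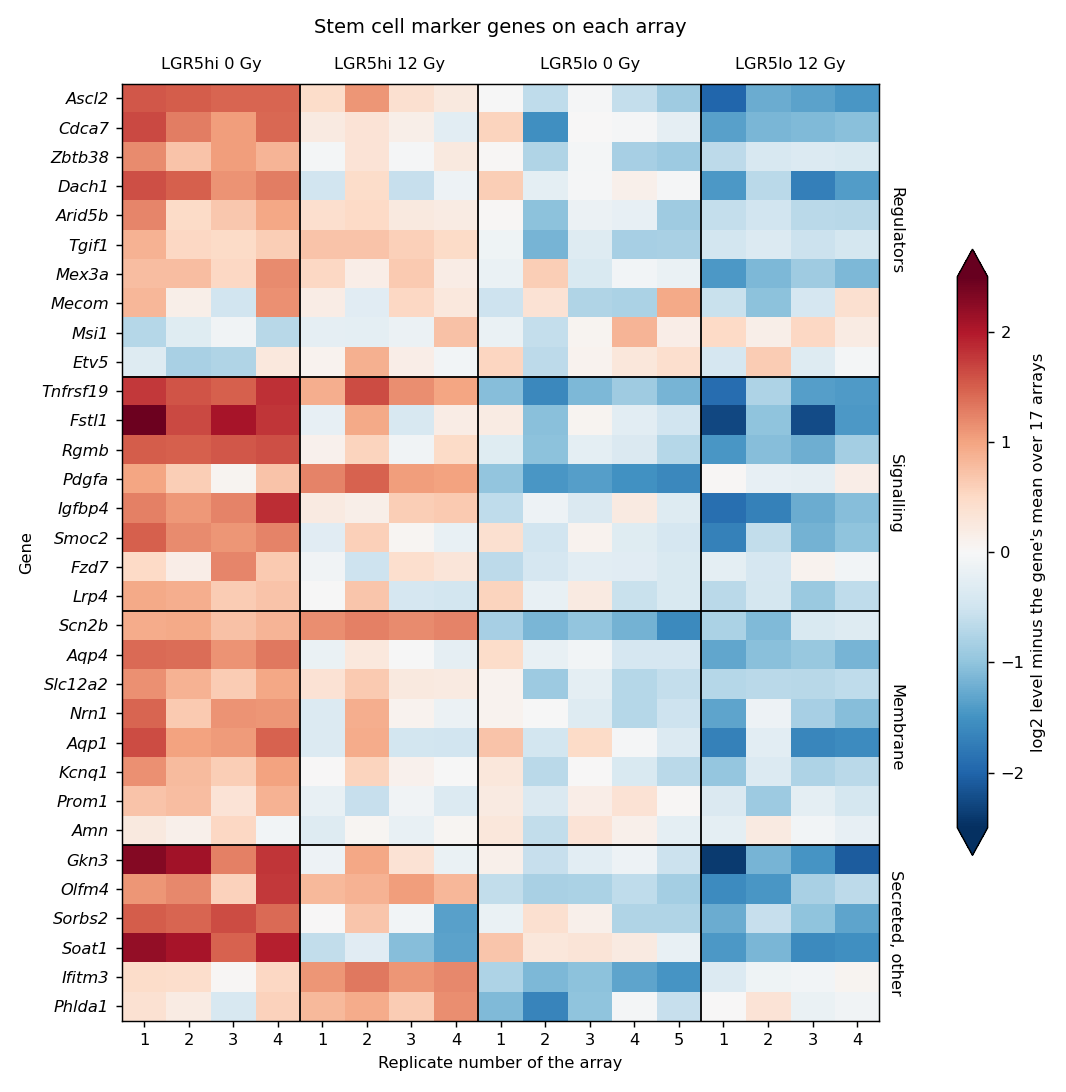
Each row is a marker and each column an array, labelled by its replicate number within its group, and the colour is the log2 level minus the marker's mean over the 17 arrays. Red prevails in the 4 non-irradiated LGR5hi arrays and blue in the 4 irradiated LGR5lo arrays, while Ifitm3, Pdgfa, Scn2b and Phlda1 are reddest on the irradiated LGR5hi arrays.

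Among the regulators, 7 of 10 were higher in LGR5hi without irradiation and 6 after 12 Gy, where 4.62% and 2.21% of all genes were. Ascl2 measured 5.90, 5.86, 5.80 and 5.80 on the non-irradiated LGR5hi arrays and 4.81, 5.44, 4.75 and 4.59 on the irradiated ones. In LGR5lo cells Ascl2 measured 4.33, 3.70, 4.31, 3.76 and 3.47 without irradiation and 2.37, 3.11, 3.01 and 2.88 after it. The 4 groups descended in that order, and of the neighbouring groups none overlapped, since the lowest irradiated LGR5hi array still read above the highest LGR5lo array. Group means ± SD were 5.84 ± 0.05 (n = 4), 4.90 ± 0.37 (n = 4), 3.91 ± 0.39 (n = 5) and 2.84 ± 0.33 (n = 4). The sorts differed by 1.93 ± 0.22 without irradiation (limma adjusted p = 3.34e-05) and by 2.06 ± 0.23 after it (3.17e-05). Ascl2 fell by a factor of 1.92 in LGR5hi (-0.94 ± 0.23, adjusted p = 0.0111) and 2.1 in LGR5lo (-1.07 ± 0.22, adjusted p = 0.0064). These falls did not pass with centring on the median of all probes (adjusted p = 0.324 and 0.428). With that centring and non-irradiated LGR5lo replicate 2 left out, the fall passed in LGR5hi and not in LGR5lo (adjusted p = 0.0304 and 0.0627).

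Dach1, a transcription cofactor of the SKI/DACH family, measured 3.43, 3.30, 2.94 and 3.09 in non-irradiated and 1.33, 2.28, 1.24 and 1.69 in irradiated LGR5hi cells. Dach1 in LGR5lo cells read 2.43, 1.57, 1.79, 1.95 and 1.78 without and 0.38, 1.14, 0.10 and 0.42 with irradiation. Every irradiated array lay below all non-irradiated arrays of its sort. Dach1 fell by 2.94-fold in LGR5hi (-1.56 ± 0.26, adjusted p = 6.62e-04) and by 2.63-fold in LGR5lo (-1.39 ± 0.25, adjusted p = 0.00224), and it was higher in LGR5hi in both arms (1.29 ± 0.25 and 1.12 ± 0.26). The higher level after 12 Gy did not pass when irradiated LGR5hi replicate 2, or irradiated LGR5lo replicate 1 or 3, was left out (adjusted p = 0.0558, 0.0549 and 0.0619).

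Cdca7, a nuclear protein tied to chromatin remodelling and cell division, read 6.77, 6.40, 6.17 and 6.55 in non-irradiated and 5.34, 5.47, 5.27 and 4.86 in irradiated LGR5hi cells. LGR5lo levels of Cdca7 were 5.68, 3.58, 5.13, 5.09 and 4.89 and, after 12 Gy, 3.76, 3.99, 4.02 and 4.08. The low non-irradiated value of 3.58 belonged to replicate 2, the array that stood apart, and without it the irradiated LGR5lo arrays would lie below all others. Cdca7 fell in LGR5hi (-1.24 ± 0.32, adjusted p = 0.0155), and its value in LGR5lo was -0.91 ± 0.30 (adjusted p = 0.0862, and 5.53e-04 without that array). It was higher in LGR5hi by 1.60 ± 0.30 without irradiation and 1.27 ± 0.32 after it. The latter missed the threshold in 6 of 17 fits that left out 1 array (adjusted p up to 0.0835), and the fall in LGR5hi in 2 of 17 (up to 0.054).

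Zbtb38, a zinc finger protein that binds methylated DNA, measured 1.88, 1.41, 1.75 and 1.55 in non-irradiated LGR5hi cells against 0.66, 1.04, 0.67 and 0.95 after irradiation. Zbtb38 levels in LGR5lo were 0.72, -0.06, 0.65, -0.12 and -0.21 without irradiation and 0.04, 0.30, 0.37 and 0.32 after it. The LGR5hi arrays fell into separate ranges with irradiation, while in LGR5lo the irradiated values lay inside the range of the others. The fall in LGR5hi was -0.82 ± 0.21 (adjusted p = 0.0167) and the LGR5lo value 0.06 ± 0.20 (adjusted p = 0.864), and the difference between them was -0.88 ± 0.29 (adjusted p = 0.577). Leaving out non-irradiated LGR5hi replicate 1 or irradiated LGR5hi replicate 1 or 3 took the fall past the threshold (adjusted p = 0.0608, 0.054 and 0.0532). Without irradiation it was 1.45 ± 0.20 higher in LGR5hi. The other 3 Zbtb38 probes had the same sign for irradiation in LGR5hi, from -0.76 ± 0.28 to -0.23 ± 0.31. Between the sorts without irradiation they also did, from 0.87 ± 0.30 to 1.12 ± 0.27. For irradiation in LGR5lo their signs were mixed, at -0.14 ± 0.27, -0.82 ± 0.77 and 0.28 ± 0.30. Their differences of effects were -0.62 ± 0.39, 0.23 ± 1.11 and -0.51 ± 0.43.

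Mex3a, an RNA-binding protein known from slowly cycling crypt cells, measured 1.11, 1.11, 0.85 and 1.52 in non-irradiated and 0.86, 0.50, 0.99 and 0.53 in irradiated LGR5hi cells, ranges that overlapped. Mex3a in LGR5lo was at 0.17, 0.95, -0.05, 0.27 and 0.17 without irradiation and -1.10, -0.78, -0.56 and -0.79 with it, which did not overlap. It fell in LGR5lo (-1.11 ± 0.20, adjusted p = 0.00281), and in LGR5hi the value was -0.43 ± 0.21 (95% interval -0.88 to 0.03). The difference between the sorts was 0.85 ± 0.20 without irradiation, which missed the threshold without LGR5hi replicate 4 (adjusted p = 0.062), and 1.53 ± 0.21 after 12 Gy.

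Arid5b, a DNA-binding partner of a histone demethylase, measured 3.99, 3.24, 3.43 and 3.73 and, after 12 Gy, 3.19, 3.25, 3.001 and 2.96 in LGR5hi cells. Its LGR5lo levels were 2.80, 1.74, 2.62, 2.55 and 1.87 without irradiation and 2.17, 2.29, 2.10 and 2.08 after it. Tgif1, a homeodomain corepressor of TGF-beta signalling, measured 4.66, 4.32, 4.28 and 4.41 and then 4.51, 4.51, 4.40 and 4.27 in LGR5hi. Both genes separated the sorts in both arms and overlapped between irradiated and non-irradiated arrays. For Tgif1 in LGR5lo the values were 3.69, 2.64, 3.48, 2.98 and 2.996 and, irradiated, 3.35, 3.46, 3.26 and 3.36. Tgif1 was 1.26 ± 0.18 higher in LGR5hi without irradiation and 1.06 ± 0.19 after it, and its change with 12 Gy in LGR5hi was 0.002 ± 0.19 (95% interval -0.41 to 0.41). Arid5b was higher in LGR5hi by 1.28 ± 0.22 and 0.94 ± 0.23 after 12 Gy (adjusted p = 0.0197). The latter missed the threshold in 5 of 17 fits that left out 1 array, with adjusted p up to 0.0643.

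Mecom, Msi1 and Etv5 passed no test. Mecom, a zinc finger transcription factor, ranged from -3.44 to -1.81 in non-irradiated LGR5hi and from -3.73 to -1.997 in non-irradiated LGR5lo cells. Etv5, an ETS factor downstream of FGF signalling, was -0.54 ± 0.30 in LGR5hi against LGR5lo without irradiation (95% interval -1.19 to 0.10). Msi1, the RNA-binding protein Musashi-1, was at -0.52 ± 0.27 for the same difference (95% interval -1.09 to 0.05).

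The 2 probes of Msi1 did not show the same thing. In a fit of every non-control probe, the brighter one, used here, differed between the sorts by -0.52 ± 0.28 without irradiation, and the other by 1.06 ± 0.40. Tnfrsf19 also has 2 probes, with 2.84 ± 0.23 and 0.97 ± 0.55. Their first 30 bases are given 5′ to 3′, since the probes of a gene gave unlike values. The difference between probes was not tested, and the dimmer probes had larger standard errors.
Msi1, brighter probe: tgcctctctccctggtcgcttttatttatt
Msi1, other probe: gagcgaggacatcgtagagaaagtgtgtga
Tnfrsf19, brighter probe: atggaatatattttgaatcgcaggattttc
Tnfrsf19, other probe: aagccaaggaggctgggaagacagggaaaa
The Nrn1 probes also gave unlike values, with 1.38 ± 0.29 for the brighter probe and -0.01 ± 0.71 for the other, which was above background on 12 arrays. Altogether 13 of the 32 markers had more than 1 probe, 48 probes in all.

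All 8 signalling markers were higher in LGR5hi without irradiation, and 6 after 12 Gy (4.62% and 2.21% of all genes). Tnfrsf19, also called Troy, a TNF receptor family member and WNT target whose promoter is printed above, measured 2.82, 2.60, 2.53 and 2.87 in non-irradiated LGR5hi cells. After 12 Gy it measured 1.95, 2.66, 2.19 and 2.03 there. Tnfrsf19 in LGR5lo cells measured -0.03, -0.56, -0.09, 0.14 and -0.13 and, irradiated, -0.87, 0.27, -0.34 and -0.39. Every LGR5hi array read above every LGR5lo array, and the irradiated and non-irradiated arrays of each sort overlapped. The sorts differed 7.16-fold without irradiation (2.84 ± 0.22, limma adjusted p = 8.54e-07) and 5.81-fold after it (2.54 ± 0.23, adjusted p = 3.72e-06). Irradiation gave -0.50 ± 0.23 in LGR5hi and -0.20 ± 0.22 in LGR5lo, neither past the threshold (95% intervals -0.98 to -0.01 and -0.65 to 0.26).

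Fstl1, a secreted follistatin-like glycoprotein, measured 2.32, 1.53, 1.94 and 1.67 in non-irradiated and -0.33, 0.82, -0.53 and 0.06 in irradiated LGR5hi cells. Fstl1 in LGR5lo cells was 0.09, -1.17, -0.05, -0.40 and -0.60 without and -2.41, -1.14, -2.37 and -1.56 with irradiation. In LGR5lo the groups overlapped only through non-irradiated replicate 2 and irradiated replicate 2, at -1.17 and -1.14. It fell by 3.63-fold in LGR5hi (-1.86 ± 0.35, adjusted p = 0.00188) and 2.72-fold in LGR5lo (-1.44 ± 0.34, adjusted p = 0.0151). The LGR5lo fall missed the threshold without irradiated LGR5lo replicate 1 or 3 (adjusted p = 0.0618 and 0.0646) and with quantile normalization (adjusted p = 0.177).

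Rgmb, a membrane-anchored co-receptor for BMPs, was tight in non-irradiated LGR5hi cells at 4.11, 4.08, 4.14 and 4.21 and lower after 12 Gy at 2.71, 3.14, 2.51 and 3.06. Rgmb levels in LGR5lo cells were 2.29, 1.57, 2.35, 2.23 and 1.88 and, irradiated, 1.14, 1.54, 1.36 and 1.75. Irradiated LGR5lo arrays overlapped the others only through non-irradiated replicate 2. The fall in LGR5hi was -1.28 ± 0.20 (adjusted p = 3.04e-04) and the LGR5lo value -0.62 ± 0.19 (adjusted p = 0.0572, and 0.0115 without that replicate). The other probe of Rgmb, above background on 16 arrays, gave smaller values of -0.79 ± 0.21 in LGR5hi and -0.17 ± 0.20 in LGR5lo. LGR5hi cells had 4.2-fold more Rgmb without irradiation and 2.65-fold more after it.

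Pdgfa, the ligand of PDGF receptor alpha on neighbouring stromal cells, moved the other way. It measured 6.07, 5.71, 5.16 and 5.80 in non-irradiated LGR5hi cells and 6.34, 6.57, 6.13 and 6.09 after 12 Gy. Pdgfa in LGR5lo cells was 4.11, 3.64, 3.71, 3.58 and 3.47 and, irradiated, 5.12, 4.88, 4.87 and 5.26. The irradiated arrays of each sort read above all its non-irradiated arrays but only narrowly in LGR5hi. In LGR5lo it rose 2.51-fold (1.33 ± 0.19, adjusted p = 3.28e-04), and in LGR5hi the value was 0.59 ± 0.20 (adjusted p = 0.0601). The effects differed by -0.73 ± 0.27, with an adjusted p of 0.644. Pdgfa was higher in LGR5hi by 1.98 ± 0.19 without irradiation and 1.25 ± 0.20 after it.

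Igfbp4, which binds insulin-like growth factors, measured 1.41, 1.24, 1.39 and 1.98 in non-irradiated and 0.37, 0.29, 0.76 and 0.81 in irradiated LGR5hi cells. Igfbp4 in LGR5lo cells was at -0.50, 0.02, -0.22, 0.37 and -0.17 without and -1.73, -1.54, -1.09 and -0.92 with irradiation. Irradiated and non-irradiated arrays did not overlap in either sort. It fell in LGR5hi (-0.95 ± 0.23, adjusted p = 0.011) and in LGR5lo (-1.22 ± 0.22, adjusted p = 0.00254). The sorts differed by 1.61 ± 0.22 and, after 12 Gy, by 1.88 ± 0.23.

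Smoc2, a secreted calcium-binding protein of the matrix, measured 7.14, 6.83, 6.76 and 6.88 in non-irradiated and 5.37, 6.25, 5.70 and 5.46 in irradiated LGR5hi cells. Smoc2 in LGR5lo cells read 6.06, 5.18, 5.73, 5.35 and 5.22 and, irradiated, 3.96, 5.03, 4.47 and 4.65. Again no irradiated array reached the non-irradiated range of its sort. Smoc2 fell 2.31-fold in LGR5hi (-1.21 ± 0.25, adjusted p = 0.00389) and 1.97-fold in LGR5lo (-0.98 ± 0.24, adjusted p = 0.0201), the latter not without irradiated LGR5lo replicate 1 or 3 (adjusted p = 0.0806 and 0.0627). It was 1.40 ± 0.24 higher in LGR5hi without irradiation and 1.17 ± 0.25 after it.

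The WNT receptor Fzd7 measured -0.16, -0.50, 0.57 and 0.000 in non-irradiated LGR5hi and -1.32, -1.09, -0.93, -0.94 and -1.05 in non-irradiated LGR5lo cells, which did not overlap. After 12 Gy Fzd7 measured -0.74, -1.19, -0.24 and -0.36 and -0.91, -1.08, -0.58 and -0.73, which did. It was 1.04 ± 0.22 higher in LGR5hi without irradiation (adjusted p = 0.00658), with a value of 0.19 ± 0.23 after it (adjusted p = 0.786). The other probe of Fzd7, above background on the same 16 arrays, differed between the sorts by 0.80 ± 0.33 and, after 12 Gy, by 0.67 ± 0.35. For irradiation that probe gave -1.03 ± 0.35 in LGR5hi and -0.90 ± 0.33 in LGR5lo, where the brighter one gave -0.61 ± 0.24 and 0.24 ± 0.23. The probes thus had opposite signs in LGR5lo, and the difference of effects was -0.13 ± 0.48 against -0.85 ± 0.33. Lrp4, an LDL receptor family member that modulates WNT signals, measured 0.41, 0.37, 0.10 and 0.18 in non-irradiated and -0.55, 0.16, -0.96 and -1.0004 in irradiated LGR5hi cells. Lrp4 in LGR5lo was 0.02, -0.71, -0.31, -1.10 and -0.92 and, irradiated, -1.20, -0.98, -1.46 and -1.18. Its difference between the sorts (0.87 ± 0.25, adjusted p = 0.0404) and its fall in LGR5hi (-0.85 ± 0.27, adjusted p = 0.0442) each missed the threshold in 11 of 17 fits that left out 1 array, with adjusted p up to 0.12 and 0.141.

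Of 8 membrane markers, 6 were higher in LGR5hi without irradiation and 4 after it (4.62% and 2.21% of all genes). The water channel Aqp4 measured 2.84, 2.83, 2.55 and 2.74 in non-irradiated and 1.26, 1.69, 1.41 and 1.20 in irradiated LGR5hi cells. Aqp4 in LGR5lo cells was 1.88, 1.23, 1.36, 1.004 and 0.996 and, irradiated, 0.11, 0.38, 0.47 and 0.26. Neither sort overlapped between doses, and irradiated LGR5hi cells lay in the range of non-irradiated LGR5lo cells. Aqp4 fell 2.55-fold in LGR5hi (-1.35 ± 0.19, adjusted p = 1.18e-04) and 1.98-fold in LGR5lo (-0.99 ± 0.18, adjusted p = 0.00234). The sorts differed by 1.44 ± 0.18 and 1.08 ± 0.19 in the 2 arms.

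Aqp1, another water channel, measured 6.87, 6.25, 6.30 and 6.72 in non-irradiated and 4.89, 6.17, 4.77 and 4.75 in irradiated LGR5hi cells. Aqp1 in LGR5lo cells was 5.96, 4.77, 5.71, 5.20 and 4.89 and, irradiated, 3.54, 4.97, 3.603 and 3.66. In both sorts irradiated replicate 2 read over 1 unit above the other irradiated arrays, which were close together. The falls were -1.39 ± 0.38 in LGR5hi (adjusted p = 0.0214) and -1.36 ± 0.36 in LGR5lo (adjusted p = 0.03). Each missed the threshold in 5 of 17 fits without 1 array, with adjusted p up to 0.0702 and 0.104. The difference between the sorts without irradiation (1.23 ± 0.36, adjusted p = 0.0424) did so in 12 of 17, with adjusted p up to 0.134.

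Scn2b, an auxiliary subunit of sodium channels, separated the sorts most among the membrane markers. It measured 4.14, 4.16, 3.96 and 4.08 in non-irradiated and 4.38, 4.48, 4.40 and 4.45 in irradiated LGR5hi cells. Scn2b in LGR5lo cells was 2.39, 2.08, 2.23, 2.03 and 1.63 and, irradiated, 2.43, 2.11, 2.84 and 2.90. LGR5hi cells had 4.03-fold more without irradiation (2.01 ± 0.17, adjusted p = 2.71e-06) and 3.62-fold more after it (1.86 ± 0.18, adjusted p = 1.08e-05). All 4 irradiated LGR5hi arrays read above the non-irradiated ones, yet the difference of 0.34 ± 0.18 had an adjusted p of 0.295.

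The chloride-importing cotransporter Slc12a2 measured 7.79, 7.52, 7.30 and 7.62 in non-irradiated LGR5hi and 6.73, 5.75, 6.41, 5.94 and 6.06 in non-irradiated LGR5lo cells. After 12 Gy Slc12a2 read 7.02, 7.31, 6.89 and 6.88 and 5.94, 5.99, 5.96 and 6.02. It was higher in LGR5hi by 1.38 ± 0.18 and 1.05 ± 0.19, and neither irradiation effect was called (-0.53 ± 0.19 and -0.20 ± 0.18).

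Kcnq1, a potassium channel of the basolateral membrane, measured 6.51, 6.16, 5.98 and 6.36 in non-irradiated and 5.38, 5.93, 5.46 and 5.35 in irradiated LGR5hi cells. Kcnq1 in LGR5lo was 5.64, 4.68, 5.37, 4.97 and 4.69 and, irradiated, 4.39, 5.02, 4.59 and 4.68. Its fall in LGR5hi (-0.72 ± 0.23, adjusted p = 0.0454) missed the threshold in 9 of 17 fits without 1 array, and its higher level in LGR5hi after 12 Gy (0.86 ± 0.23, adjusted p = 0.0324) in 6 of 17. Without irradiation the sorts differed by 1.18 ± 0.21, which stayed past the threshold in all 17.

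Nrn1, a membrane-anchored neuritin, measured 1.57, 0.77, 1.25 and 1.22 in non-irradiated and -0.23, 1.02, 0.21 and -0.03 in irradiated LGR5hi cells, with irradiated replicate 2 inside the non-irradiated range. Nrn1 in LGR5lo was 0.20, 0.10, -0.20, -0.59 and -0.41 and, irradiated, -1.20, -0.003, -0.71 and -0.95. It was 1.38 ± 0.28 higher in LGR5hi without irradiation (adjusted p = 0.00542). Its fall in LGR5hi (-0.96 ± 0.30, adjusted p = 0.0441) missed the threshold in 10 of 17 fits without 1 array.

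Prom1, or CD133, measured 6.13, 6.19, 5.77 and 6.30 in non-irradiated and 5.24, 4.85, 5.34 and 5.09 in irradiated LGR5hi cells, with no overlap. Prom1 in LGR5lo was 5.66, 5.07, 5.60, 5.78 and 5.46 and, irradiated, 5.07, 4.51, 5.17 and 4.99. It fell in LGR5hi (-0.97 ± 0.19, adjusted p = 0.0025, but 0.0531 for the mean of its probes), with an LGR5lo value of -0.57 ± 0.18 (adjusted p = 0.0695) and a difference between the sorts of 0.58 ± 0.18 without irradiation (adjusted p = 0.0552). Amn, the partner of cubilin in vitamin uptake, passed no test and ranged from 2.44 to 3.03 in non-irradiated LGR5hi and 1.89 to 2.84 in non-irradiated LGR5lo cells.

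The remaining 6 markers, secreted proteins and others, were all higher in LGR5hi without irradiation, and 3 were after it (4.62% and 2.21% of all genes). Olfm4 measured 6.08, 6.19, 5.56 and 6.76 in non-irradiated and 5.80, 5.85, 6.03 and 5.82 in irradiated LGR5hi cells. Olfm4 in LGR5lo cells was 4.37, 4.18, 4.20, 4.35 and 4.14 without and 3.42, 3.53, 4.19 and 4.33 with irradiation. The sorts never overlapped, while the doses overlapped in both, and the irradiated LGR5lo arrays split into a lower pair (replicates 1 and 2) and a higher pair (replicates 3 and 4) that lie on different slides. LGR5hi cells had 3.73-fold more Olfm4 without irradiation (1.90 ± 0.22, limma adjusted p = 4.82e-05) and 4.03-fold more after it (2.01 ± 0.24, adjusted p = 5.00e-05). The irradiation effect was -0.27 ± 0.24 in LGR5hi (95% interval -0.77 to 0.23, adjusted p = 0.603) and -0.38 ± 0.22 in LGR5lo (95% interval -0.86 to 0.09, adjusted p = 0.293), where the sign turned with centring on the median of all probes (0.15).

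**Figure D4:**
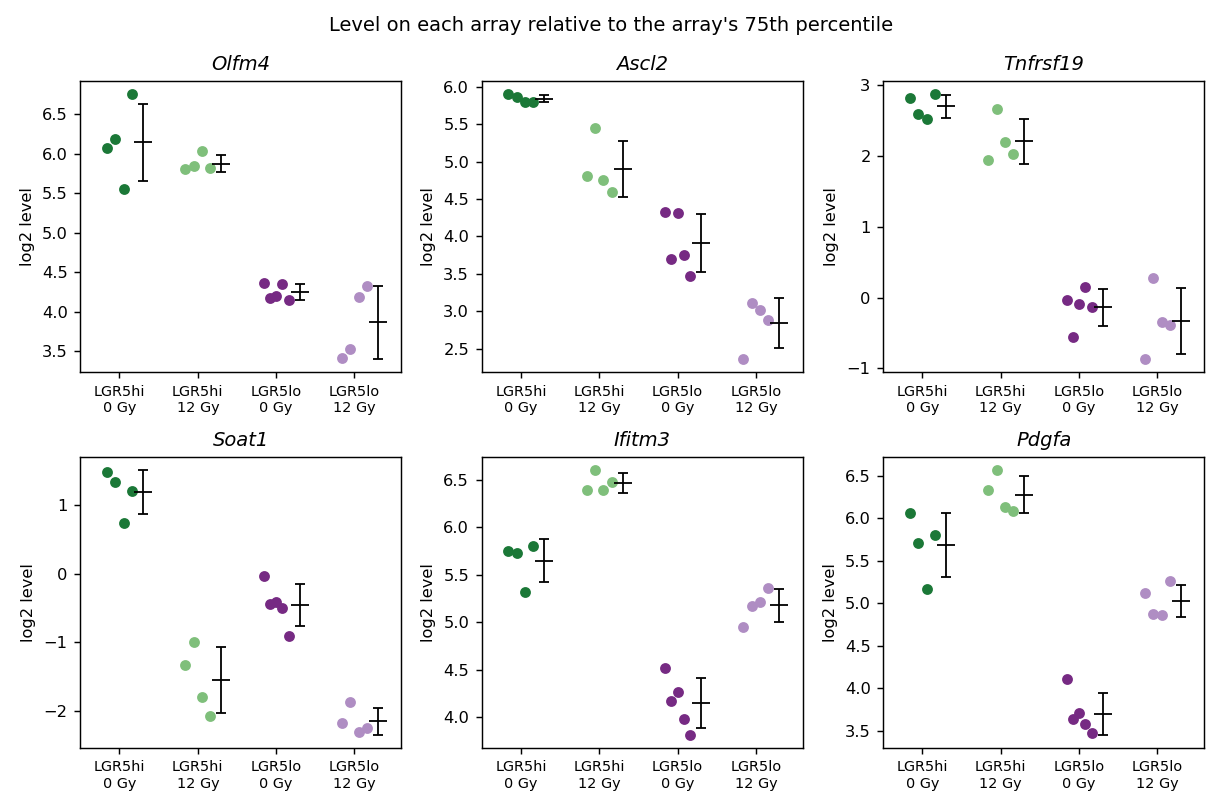
Each point is 1 array and its log2 level relative to the array's 75th percentile, for 6 markers in the 4 groups, with the mean and SD beside the points; the axes differ and do not start at 0. Olfm4 and Tnfrsf19 separate the sorts and not the doses, Ascl2 and Soat1 descend with irradiation, and Ifitm3 and Pdgfa ascend.

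Soat1, which esterifies cholesterol for storage, measured 1.48, 1.34, 0.75 and 1.21 in non-irradiated and -1.33, -1.001, -1.79 and -2.07 in irradiated LGR5hi cells. Soat1 in LGR5lo cells was -0.03, -0.45, -0.41, -0.50 and -0.90 and, irradiated, -2.17, -1.88, -2.31 and -2.25. All irradiated arrays, of either sort, read below all non-irradiated arrays. The fall was 6.69-fold in LGR5hi (-2.74 ± 0.24, adjusted p = 1.44e-06) and 3.23-fold in LGR5lo (-1.69 ± 0.23, adjusted p = 1.97e-04), and these differed by -1.05 ± 0.33 (adjusted p = 0.531). The difference between the sorts was 1.65 ± 0.23 without irradiation and 0.60 ± 0.24 (adjusted p = 0.179) after it.

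Gkn3, a gastrokine, measured 5.76, 5.57, 4.74 and 5.26 in non-irradiated and 3.35, 4.44, 3.83 and 3.31 in irradiated LGR5hi cells. Gkn3 in LGR5lo cells was 3.59, 2.88, 3.20, 3.34 and 2.93 and, irradiated, 1.07, 2.30, 1.999 and 1.39. The doses did not overlap in either sort. It fell 3.04-fold in LGR5hi (-1.60 ± 0.31, adjusted p = 0.00221) and 2.83-fold in LGR5lo (-1.501 ± 0.30, adjusted p = 0.005), and was higher in LGR5hi by 2.14 ± 0.30 and 2.04 ± 0.31.

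Sorbs2, an adaptor protein of the actin cytoskeleton and the marker above background on the fewest arrays, measured -2.42, -2.49, -2.32 and -2.53 in non-irradiated and -3.93, -3.25, -4.02 and -5.29 in irradiated LGR5hi cells. Sorbs2 in LGR5lo was -4.10, -3.53, -3.81, -4.70 and -4.70 and, irradiated, -5.18, -4.52, -4.95 and -5.27. It fell in LGR5hi (-1.68 ± 0.36, adjusted p = 0.00414). That fall missed the threshold with quantile normalization (adjusted p = 0.0786) and with normexp background correction on 16 arrays. Sorbs2 was 1.73 ± 0.34 higher in LGR5hi without irradiation, while the LGR5lo effect was -0.81 ± 0.34 (adjusted p = 0.161).

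Ifitm3, an interferon-induced membrane protein that restricts viruses, measured 5.75, 5.73, 5.31 and 5.80 in non-irradiated and 6.39, 6.61, 6.39 and 6.48 in irradiated LGR5hi cells. Ifitm3 in LGR5lo cells was 4.51, 4.17, 4.26, 3.98 and 3.82 and, irradiated, 4.95, 5.17, 5.22 and 5.37. All irradiated arrays exceeded the non-irradiated arrays of their sort. Ifitm3 rose 1.76-fold in LGR5hi (0.82 ± 0.16, adjusted p = 0.0029) and 2.04-fold in LGR5lo (1.03 ± 0.16, adjusted p = 6.25e-04), and the sorts differed by 1.502 ± 0.16 and 1.29 ± 0.16. Phlda1, a pleckstrin homology-like protein, measured 4.15, 3.97, 3.37 and 4.34 in non-irradiated and 4.58, 4.69, 4.40 and 4.92 in irradiated LGR5hi cells. Phlda1 in LGR5lo was 2.67, 2.12, 2.76, 3.72 and 3.19 and, irradiated, 3.77, 4.11, 3.601 and 3.68. Its effects of 0.69 ± 0.29 and 0.90 ± 0.27 were not called (adjusted p = 0.151 and 0.0584). Phlda1 was 1.07 ± 0.27 higher in LGR5hi without irradiation, a call that ended without LGR5hi replicate 1, 2 or 4 (adjusted p up to 0.0798).

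The markers deviated together on single arrays. Of the 4 non-irradiated LGR5hi arrays, replicate 1 held the highest value for 17 of 32 markers, where it was highest for 32.2% of all genes. Replicate 3 of the same group held the lowest value for 20 markers (38.5% of all genes). Replicate 1 of the non-irradiated LGR5lo arrays was highest for 21 markers (19.1% of all genes), and replicate 2, the one that stood apart, was lowest for 17 (39.5%). Among irradiated arrays replicate 2 was highest for 24 markers in LGR5hi (34.2% of all genes) and for 17 in LGR5lo (28.4%). Irradiated LGR5lo replicate 1 was lowest for 19 (16.6%). In LGR5hi, 17 markers fell and 1 rose without irradiated LGR5hi replicate 2, and 11 fell and 2 rose without non-irradiated LGR5hi replicate 1. Without non-irradiated LGR5hi replicate 3, 15 fell and 1 rose there. In LGR5lo, 10 markers fell and 3 rose without irradiated LGR5lo replicate 2, 7 fell and 2 rose without irradiated LGR5lo replicate 1, and 9 fell and 2 rose without non-irradiated LGR5lo replicate 1.

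Genes outside the 32 were taken from lists written from general knowledge, but with earlier results of these data known. Of 11 other genes of the LGR5 signature, Lgr5 included, 11 were higher in LGR5hi without irradiation and 6 after it. Of all genes tested, 4.62% and 2.21% were. Lgr5 is the gate, so its difference was set by the sort. A list named for LGR5 cells gives no separate support for the difference between these sorts. In this list 7 fell in LGR5hi and 6 in LGR5lo after 12 Gy, with none rising. Of all genes, 7.29% and 3.02% fell and 6.18% and 4.47% rose. Those that fell included Cdo1 (-2.97 ± 0.17 and -2.25 ± 0.16), Slc14a1 (-2.44 ± 0.27 and -3.001 ± 0.26), Rnf32 (-2.19 ± 0.20 and -1.47 ± 0.19) and the vitamin D receptor gene Vdr (-2.12 ± 0.19 and -1.15 ± 0.18). The median change of the LGR5 signature list was -1.53 in LGR5hi and -1.15 in LGR5lo. Of 16 WNT targets, 8 were higher in LGR5hi in each arm, and after 12 Gy 3 fell and 2 rose in LGR5hi, and 3 fell and 3 rose in LGR5lo. Axin2, the feedback inhibitor of WNT signalling, fell (-0.99 ± 0.25 and -1.01 ± 0.23), while Cd44, an adhesion receptor, rose (1.89 ± 0.18 and 2.24 ± 0.17), as did Myc (0.66 ± 0.19 and 0.80 ± 0.18).

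Markers of other states and cells moved beside these results, and their part in them was not tested. Of 12 proliferation genes 9 fell in LGR5hi and 6 in LGR5lo after 12 Gy (7.29% and 3.02% of all genes), among them Mki67 (-1.71 ± 0.20 and -1.03 ± 0.19). Of the 12, 3 were higher in LGR5hi without irradiation and 1 after it (4.62% and 2.21% of all genes). LGR5lo cells had higher levels of 7 of 8 goblet, 10 of 10 enteroendocrine and 10 of 10 tuft cell genes without irradiation, and of 7, 10 and 7 of them after it. Among all genes, 4.93% and 4.09% were higher in LGR5lo in these arms. The mean level over the enteroendocrine list ranged from 0.03 to 1.10 on non-irradiated LGR5hi and from 4.04 to 4.60 on non-irradiated LGR5lo arrays. For the goblet list these ranges were 4.81 to 5.84 and 6.92 to 8.30, and for the tuft list -1.45 to -0.15 and 1.06 to 1.62. Within a sort, irradiation changed 0 goblet genes, raised 2 enteroendocrine genes in each sort and lowered 1 in LGR5lo (limma; 0 of 8 goblet genes at an unadjusted p under 0.05), and raised 1 tuft gene, Alox5, in LGR5hi (2.06 ± 0.29).

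Of 8 Paneth genes Pla2g2a was lower in LGR5hi without irradiation (-1.15 ± 0.32) and rose in LGR5hi after it (1.12 ± 0.34). Of 12 enterocyte genes none differed between the sorts without irradiation (limma; 0 at an unadjusted p under 0.05), although their mean level ranged from 1.39 to 4.98 over the 4 non-irradiated LGR5hi arrays. Of 11 leukocyte genes 5 were lower and 2 higher in LGR5hi without irradiation, 9 of them above background on at least 12 arrays, with mean levels of -2.17 to -1.92 in LGR5hi and -1.94 to -0.54 in LGR5lo. After 12 Gy 1 of them rose in LGR5hi, and 1 rose and 3 fell in LGR5lo. Stromal and endothelial genes (8) and erythrocyte genes (4) had mean levels from -2.65 to -0.43 and from -5.49 to -2.20 over the non-irradiated arrays. Of the former only Vim, an intermediate filament gene, was called: it was lower in LGR5hi without irradiation (-4.08 ± 0.21, limma adjusted p = 3.99e-08) and after it (-4.70 ± 0.22), and rose in LGR5lo (1.27 ± 0.21). Of the latter only Hba-a1, an alpha globin gene, was called, falling in LGR5hi (-1.17 ± 0.35) and lower in LGR5hi than in LGR5lo after 12 Gy (-1.94 ± 0.35). Log intensities on an array have no true 0, so no marker of these cells can be called absent.

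**Figure D5:**
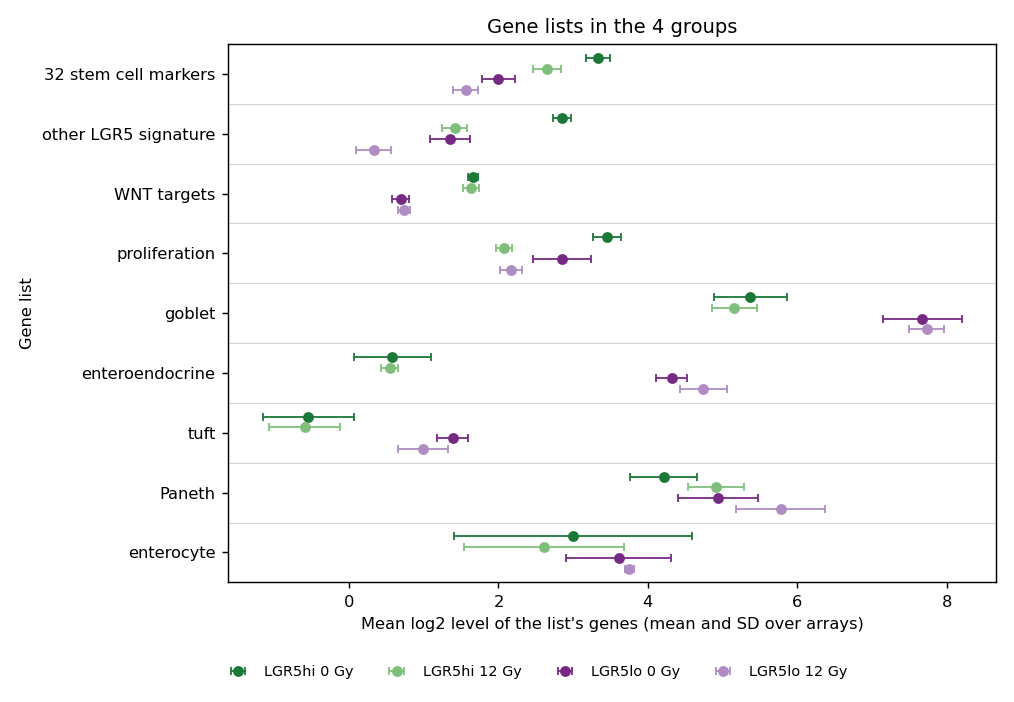
The mean log2 level over the genes of each list is plotted for the 4 groups, as mean and SD over arrays; positions compare groups within a list and not lists with each other, since probes differ in brightness. The 32 stem cell markers descend from 3.33 in non-irradiated LGR5hi to 1.56 in irradiated LGR5lo cells, and the goblet, enteroendocrine and tuft lists lie higher in LGR5lo at both doses.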

How the data were processed

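RNA of LGR5hi and LGR5lo cells was hybridised to 17 Agilent mouse arrays. Per the file headers and the submitters' processing notes, Agilent Feature Extraction 10.7.3.1 made the deposited Cy3 intensity of each spot by background subtraction and detrending, and nothing was normalized between arrays. A deposited series table holds the authors' log2 values; set against the signals, these were the level relative to the 75th percentile after each probe's median over arrays was taken off, with 100% of probes within 0.02 on 16 arrays. That table supplied the values of non-irradiated LGR5hi replicate 1, whose scanner file is damaged as held here and gives no spot flags. The 75th percentile of signal ran from 286 to 627 on the rest, and the number of arrays limits the precision.

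From each log2 signal the 75th percentile of its array was subtracted, outlier-flagged and control spots being left out. Probes above background on at least 4 arrays were kept (41440 of 55681). The brightest probe of each of 27769 names was fitted by group means with limma 3.58.1 (lmFit, eBayes; R 4.3.3) at a Benjamini-Hochberg threshold of 0.05. Accessions of 27235 probes matched RefSeq's table, and 2838 symbols were updated, none a marker's. Tables and figures used Python 3.11.15, pandas 2.3.3, numpy 2.4.6 and matplotlib 3.10.9. The code was tested on simulated data.

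Same-numbered LGR5hi and LGR5lo arrays of an arm deviated together (correlations of 0.121 to 0.457), so numbers were taken to pair the sorts within an arm. Across arms, same-numbered arrays did not deviate together. Values given gene by gene come from the fit by group means, without this pairing, unless the pairing is named. Alternatives were median or quantile scaling, normexp (offset 50), other filters, the series table in place of the signals, averaged probes, terms for sex, replicate number or slide, single slides, array weights, another variance model, only the compared groups, and leaving out each array. The markers and gene lists were chosen with earlier results of these data known. All 32 markers are described, with values on every array for those called in any comparison and for Olfm4 and Ascl2; other genes named are Lgr5, Cdkn1a, Mdm2 and up to 4 per list with the smallest p in a comparison.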

Additional observations from a re-analysis of the deposited data

Results flagged for a closer look

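Within 4 of 128 combinations of a marker and a group, 1 array lay far from the other arrays of its group by Dixon's test, where chance alone marks about 1 in 20. Aqp1 measured 6.17 on irradiated LGR5hi replicate 2, against 4.76 to 4.89 on the other irradiated LGR5hi arrays. On irradiated LGR5lo replicate 2 it measured 4.97, against 3.54 to 3.66. Msi1 measured 2.89 on irradiated LGR5hi replicate 4, against 1.92 to 2.02 on the others. Ifitm3 measured 5.31 on non-irradiated LGR5hi replicate 3, against 5.73 to 5.80 on the others.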

How the results depend on the processing

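Under the 35 alternatives run for it, no marker's effect of irradiation differed between the sorts by limma. Centring on the median of all probes called 5 markers for irradiation in LGR5hi, 2 in LGR5lo and 7 for LGR5hi against LGR5lo after 12 Gy, in place of 18, 12 and 19; with non-irradiated LGR5lo replicate 2 left out as well, it called 15, 10 and 17. Array weights called 20 for irradiation in LGR5lo. Within the slide of replicates 1 and 2 these comparisons gave 1, 0 and 3 calls and the sorts without irradiation 2, and within the slide of replicates 3 and 4 they gave 10, 3, 2 and 7, with 2 arrays a group. Under the other alternatives the counts stayed within 1.5 times their value, from 15 to 23, 8 to 15 apart from the array weights, 16 to 26 and 24 to 28. With 1 array left out they ran from 13 to 20, 9 to 15, 15 to 20 and 23 to 28.

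Sign changes of uncalled values are given here for Olfm4 and Ascl2 only. With median centring, 24 of 32 markers kept their sign for irradiation in LGR5lo, and 27 of 32 for the difference of effects. The Olfm4 value for irradiation in LGR5lo turned to 0.15 with that centring. The difference of effects, 0.13 for Ascl2 and 0.11 for Olfm4, turned to -0.42 and -0.44 with median centring, -0.038 and -0.055 with centring over the kept genes, -0.030 and -0.082 with median centring and non-irradiated LGR5lo replicate 2 left out, and -0.045 and -0.22 within the slide of replicates 3 and 4. With 1 array left out it ran from -0.051 to 0.24 for Ascl2 and from -0.082 to 0.32 for Olfm4.

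The replicate block within an arm gave 26 and 22 markers higher in LGR5hi without and after irradiation; the calls it changed are named with those counts and it changed no other call. A random block within an arm gave 28 and 22, adding Prom1 without irradiation and Aqp1, Nrn1 and Phlda1 after it and losing none, and changed no call for irradiation. The replicate number as a block across all groups gave 19 calls for irradiation in LGR5hi and 14 in LGR5lo, and 24 and 18 between the sorts. The calls kept under every array left out were 12 of 18, 9 of 12, 23 of 27 and 15 of 19. Those kept under all other settings apart from the single slides were 4 of 18, 2 of 12, 22 of 27 and 7 of 19. The cause of these changes was not tested. The median standard error was 0.26 for irradiation in LGR5hi, which limits what size of effect can pass.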
